A study of Drosophila melanogaster with 4 samples.

Results

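Serpins and clip-domain proteases are the inhibitors and the enzymes of the protease cascades of insect blood. The genes described here were taken by symbol from the array's annotation: every gene whose symbol starts with Spn followed by a digit, the serpin gene nec, and 13 named protease genes (SPE, psh, grass, MP1, Hayan, modSP, Sp7, ea, snk, gd, spirit, sphinx1 and sphinx2). This gave 37 genes of 13891 tested features, 26 serpins and 11 proteases, read from 38 probes. Whether each of the 11 carries a clip domain was not checked. MP1, modSP and, of the serpin symbols in the gene table, Spn43Ad and Spn77Bb had no probe under their own name and were not analysed here.

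Total RNA of Drosophila melanogaster larvae carrying the invadolysin allele 4Y7 was set against total RNA of Canton S wild-type larvae on 4 two-colour arrays, each with 1 mutant and 1 wild-type sample. The mutant RNA was labelled with Cy5 on replicates 1 and 4 and with Cy3 on replicates 2 and 3, and the design calls the 4 arrays biological replicates. Invadolysin is a conserved zinc metalloprotease. The lesion of 4Y7, its zygosity, the genetic background of the mutant stock, and the stage, sex and number of larvae per sample are not stated in the sources used here, and the stocks were kept at 25 degrees. The RNA came from larvae with no tissue named, so fewer cells of a type and less RNA per cell cannot be told apart in any ratio below.

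Clip-domain proteases are secreted as inactive precursors and cut one another in sequence after microbes, fungi or wounds are sensed. One branch ends in the cutting of Spätzle, the ligand of the receptor Toll, which switches on genes of antimicrobial peptides such as drosomycin. Another branch activates the prophenoloxidases, the enzymes that make melanin at wounds and around parasites. Serpins are suicide inhibitors: the target protease cuts a reactive loop of the serpin and is trapped, so that a cascade runs only where and when its inhibitor is used up. Most of this regulation acts on the proteins, while the arrays measured transcript ratios only.

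Each value is a log2 ratio, mutant over wild type, where 1 stands for a doubling. That direction is likely, not stated: its basis is how the titles word the comparison, and with the opposite direction every "higher" would read "lower". That all 4 arrays run the same way was taken from the correlation of arrays of opposite dye orientation over probes, which averaged r = 0.217, and 0.035 without replicate 1. Unturned ratios with a dye bias of the probes could give such values too, and probes are not replicates. Replicate 4 stood apart, with r over all features of 0.218, 0.039 and 0.041 with replicates 1, 2 and 3. A gene was called changed where limma's p, adjusted by Benjamini-Hochberg over all 13891 features, was under 0.05.

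None of the 37 genes passed that threshold. In limma, 0 of 26 serpins and 0 of 11 proteases were called, against 0.821% of all features (114 of 13891). At an unadjusted p under 0.05 stood 10 of the 37 genes, against 19.2% of all features. Of these, 8 were higher and 2 lower, against 7.91% and 11.3% of all features. The 8 were the serpins Spn88Ea, Spn28Dc, Spn42De, Spn42Dd, Spn28Da and Spn88Eb and the proteases SPE and sphinx2, and the 2 were the proteases psh and gd. The smallest mean change among the 114 called features was 1.07 in size on the log2 scale, and the largest among the 37 genes was 0.98, for psh. The limma 95% intervals of 27 of the 37 means lay within 1 log2 unit either side of 0, so for these a doubling or halving lay outside the interval. The intervals of the other 10 reached past 1 in size, and a p that misses the threshold does not show that these genes were unchanged.

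Both groups lay somewhat above 0 as groups. The median of the genes' mean log2 ratios was 0.21 for serpins and 0.22 for proteases, against 0.015 for all features. This rests on the direction taken for the arrays: with the signs of replicates 2 and 3 turned, the medians were -0.054 for serpins and -0.00092 for proteases. Means above 0 were found for 20 of 26 serpins (76.9%) and 9 of 11 proteases (81.8%), against 51.5% of all features. The same sign on all 4 arrays was found for 14 of the 37 genes (37.8%), against 28.9% of all features. Above 0 on all 4, it was found for 8 serpins (30.8%) and 4 proteases (36.4%), against 14.0% of all features. Below 0 on all 4, it was found for 0 serpins and 2 proteases, against 14.9% of all features.

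**Figure D1:**
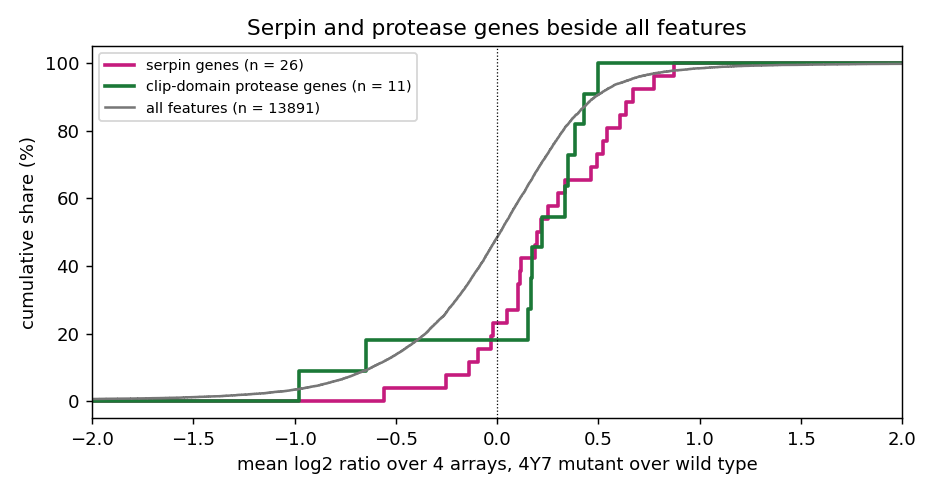
Cumulative share (percent, vertical axis) of genes at or below each mean log2 ratio of 4Y7 mutant over wild type (horizontal axis, cut at 2 in size) for 26 serpin genes, 11 protease genes and all 13891 features. Both member curves cross the middle to the right of the all-feature curve, at medians of 0.21 and 0.22 against 0.015, and the protease curve has a separate low step made by psh and gd.

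The serpins and the proteases differed little from each other. On replicates 1 to 4 the serpin medians were 0.30, 0.17, 0.29 and 0.05, and the protease medians were 0.24, 0.20, 0.32 and 0.35. The difference, serpins minus proteases, was 0.06, -0.03, -0.02 and -0.30, with a mean of -0.07 ± 0.15 (SD, n = 4 arrays). It was above 0 on 1 array and below 0 on 3, and its mean was smaller than its spread between arrays. On replicate 4 only 13 of 26 serpins were above 0, against 20, 19 and 21 on replicates 1, 2 and 3, while 8 of 11 proteases were above 0 there. Serpin means ran from -0.56 to 0.87, and protease means from -0.98 to 0.50, with psh and gd at the low end. The shapes of the groups were not compared by a test.

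Among proteases of the Toll branch, persephone (psh, NCBI Gene 32832), which is cut by microbial proteases and so reports danger to the pathway, was the lowest of all 37 genes. Its log2 ratios were -1.01, -0.91, -0.73 and -1.26 on replicates 1 to 4, all below 0 on both dye orientations. The mean was -0.98 ± 0.22 (SD, n = 4), a ratio of 0.507, with an interval from -1.39 to -0.57. It ranked 219th of all features by p and missed the threshold with a limma adjusted p of 0.0636. The rank as lowest gene rests on the direction taken for the arrays: with the signs of replicates 2 and 3 turned, psh was at -0.16, and Spn27A (-0.68), Spn85F (-0.45) and gd (-0.32) were among the genes below it. When 1 of the 4 arrays was left out, only 0 to 21 of all features were called. Neither psh nor any other member was among them.

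Hayan, which lies beside psh on the X chromosome with 0 coding genes between them and acts both in Toll activation and in melanization, had a different profile. Its log2 ratios were 1.14, -0.07, -0.48 and 0.30, with a mean of 0.22 ± 0.69 (limma adjusted p = 0.696). The high value came from replicate 1, and the 2 dye orientations had opposite signs (0.72 where the mutant carried Cy5 and -0.27 where it carried Cy3). The difference psh minus Hayan was -2.15, -0.84, -0.26 and -1.56 log2 units, below 0 on each of the 4 arrays. This pair was chosen after its values were seen, so the difference is given without a test.

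SPE, the Spätzle-processing enzyme that makes the active Toll ligand, had log2 ratios of 0.76, 0.47, 0.24 and 0.52. All 4 were above 0, and the mean was 0.50 ± 0.21 (limma adjusted p = 0.193). Grass, which acts between pattern recognition and SPE, had values of 0.99, 0.51, -0.15 and -0.02 and a mean of 0.33 ± 0.53 (limma adjusted p = 0.478), so its arrays did not agree in sign. Spirit, a further protease of the branch, had a mean of 0.15 ± 0.30. The most even values of the proteases were those of sphinx1 and sphinx2, neighbouring genes of protease homologues that lack enzyme activity. Those of sphinx2 were 0.51, 0.41, 0.46 and 0.35 (mean 0.43 ± 0.07, limma adjusted p = 0.211), and those of sphinx1 were 0.40, 0.20, 0.32 and 0.48 (mean 0.35 ± 0.12, limma adjusted p = 0.29). Both genes were above 0 on every array. The pair is related by sequence, and whether their probes share hybridization was not tested.

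In the melanization branch, Sp7, a protease that takes part in prophenoloxidase activation, had log2 ratios of 0.24, 0.41, 0.86 and 0.03. The mean was 0.39 ± 0.35 (limma adjusted p = 0.335), above 0 on all arrays but close to 0 on replicate 4.

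The 3 proteases known from the embryo, where gd acts on snk, snk on ea and ea on Spätzle to set the dorsal-ventral axis, had means of both signs. The gene gd (NCBI Gene 32159) had log2 ratios of -1.08, -0.30, -0.36 and -0.86. All were below 0, with a mean of -0.65 ± 0.38 (limma adjusted p = 0.168), and the 2 arrays with the mutant in Cy5 were the lower ones. Easter (ea) had values of -0.28, 0.17, 0.42 and 0.38 (mean 0.17 ± 0.32, limma adjusted p = 0.645), with replicate 1 the low one. Snake (snk) had a mean of 0.17 ± 0.42, below 0 on replicates 1 and 2 and above 0 on replicates 3 and 4, at -0.15, -0.20, 0.36 and 0.67.

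**Figure D2:**
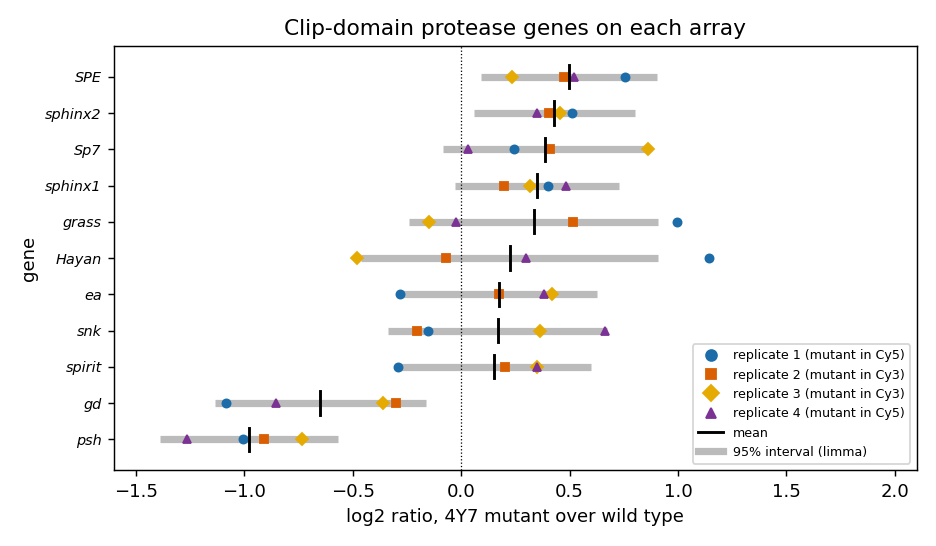
Log2 ratio of 4Y7 mutant over wild type (horizontal axis) of the 11 genes of the protease group (rows) on each of the 4 arrays (symbols), with the mean (black line) and limma's 95% interval (grey bar). The symbols of psh and gd all lie left of 0, those of SPE, sphinx2, Sp7 and sphinx1 all lie right of 0, and those of Hayan spread from -0.48 to 1.14.

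Of the serpins with a known part in Toll signalling, Spn88Ea (NCBI Gene 49804, also called Spn5), an inhibitor acting on the pathway and needed for wing expansion, had the highest mean and the smallest p. Its log2 ratios were 0.82, 0.86, 1.22 and 0.58, with a mean of 0.87 ± 0.26 (SD, n = 4), a 1.83-fold ratio. The interval ran from 0.45 to 1.30, and the limma adjusted p of 0.0785 missed the threshold. With the signs of replicates 2 and 3 turned, Spn88Ea was at -0.17 and the highest serpin was Spn77Bc, at 0.605. All arrays lay above 0 in both dye orientations, at means of 0.70 where the mutant carried Cy5 and 1.04 where it carried Cy3.

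Spn42Dd, also called Spn1, which restrains Toll activation through the fungal sensor GNBP3, had values of 0.45, 0.26, 0.51 and 0.76 and a mean of 0.49 ± 0.20 (limma adjusted p = 0.193). Necrotic (nec), which holds back activation of Toll through psh, had values of 0.20, -0.58, -0.35 and -0.27 and a mean of -0.25 ± 0.33 (limma adjusted p = 0.5). Thus psh and its inhibitor gene were both below 0 on replicates 2, 3 and 4, psh by more, and only psh was below 0 on replicate 1.

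Of the serpins that restrain melanization, Spn28Dc, which limits phenoloxidase activity after wounding, had log2 ratios of 0.37, 0.72, 1.13 and 0.87. The mean was 0.78 ± 0.32, a 1.71-fold ratio, above 0 on every array (limma adjusted p = 0.108). Spn27A, which inhibits ea in the embryo and the melanization cascade in the larva, was the most variable member. Its values were 0.82, 1.43, 1.14 and -0.96, so that 3 arrays were high and replicate 4 was low (mean 0.61 ± 1.08, limma adjusted p = 0.452). Spn77Ba, which restrains melanization in the trachea, had values of -0.26, 0.13, 0.18 and 0.37 (mean 0.10 ± 0.27, limma adjusted p = 0.774).

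Spn42Da, also called Spn4, is spliced into forms with different reactive loops, one of which inhibits furin. It was the one member with 2 probes, whose means were -0.16 ± 0.22 and 0.12 ± 0.26, and the averaged gene stood at -0.02 ± 0.18. The sources used here do not say which splice forms each probe reads.

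Of the other serpins, Spn42De had log2 ratios of 0.86, 0.53, 0.54 and 0.62 and was among the most even of the high members (mean 0.64 ± 0.15, limma adjusted p = 0.118). Spn28Da had 0.97, 0.40, 0.28 and 0.43 (mean 0.52 ± 0.31, limma adjusted p = 0.21). Spn88Eb had 0.66, 0.69, 0.90 and -0.08 (mean 0.54 ± 0.43, limma adjusted p = 0.24). The first pair lay above 0 on all arrays, and Spn88Eb on all but replicate 4.

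Spn77Bc had values of 0.63, 0.10, 0.04 and 1.92, all above 0 and higher on both arrays where the mutant carried Cy5 (mean 0.67 ± 0.87, limma adjusted p = 0.336). Its value on replicate 4 was the highest of any member on any array. Spn55B was the lowest serpin, at -0.35, -0.91, 0.34 and -1.32 (mean -0.56 ± 0.72, limma adjusted p = 0.349), and its value on replicate 4 was the lowest of any member on any array. Spn43Aa stood at -0.08, 0.44, 0.63 and 0.35 (mean 0.33 ± 0.30, limma adjusted p = 0.37), and Spn100A at -0.14, 0.01, 1.30 and 0.70 (mean 0.47 ± 0.67, limma adjusted p = 0.403). Both were below 0 on replicate 1 only.

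The remaining serpins had means from -0.14 (Spn28B) to 0.30 (Spn75F). Spn53F (0.25 ± 0.16) and Spn31A (0.195 ± 0.06) were above 0 on all 4 arrays by small amounts, and Spn31A was the least variable of the 37 genes. Means above 0 with arrays of both signs were found for Spn75F (0.30 ± 0.47), Spn28Db (0.22 ± 0.51), Spn43Ab (0.19 ± 0.34), Spn85F (0.12 ± 0.52), Spn28F (0.11 ± 0.52), Spn42Db (0.10 ± 0.41) and Spn47C (0.05 ± 0.25). Means below 0 with arrays of both signs were found for Spn28B (-0.14 ± 0.53), Spn38F (-0.09 ± 0.29) and Spn42Dc (-0.03 ± 0.67).

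**Figure D3:**
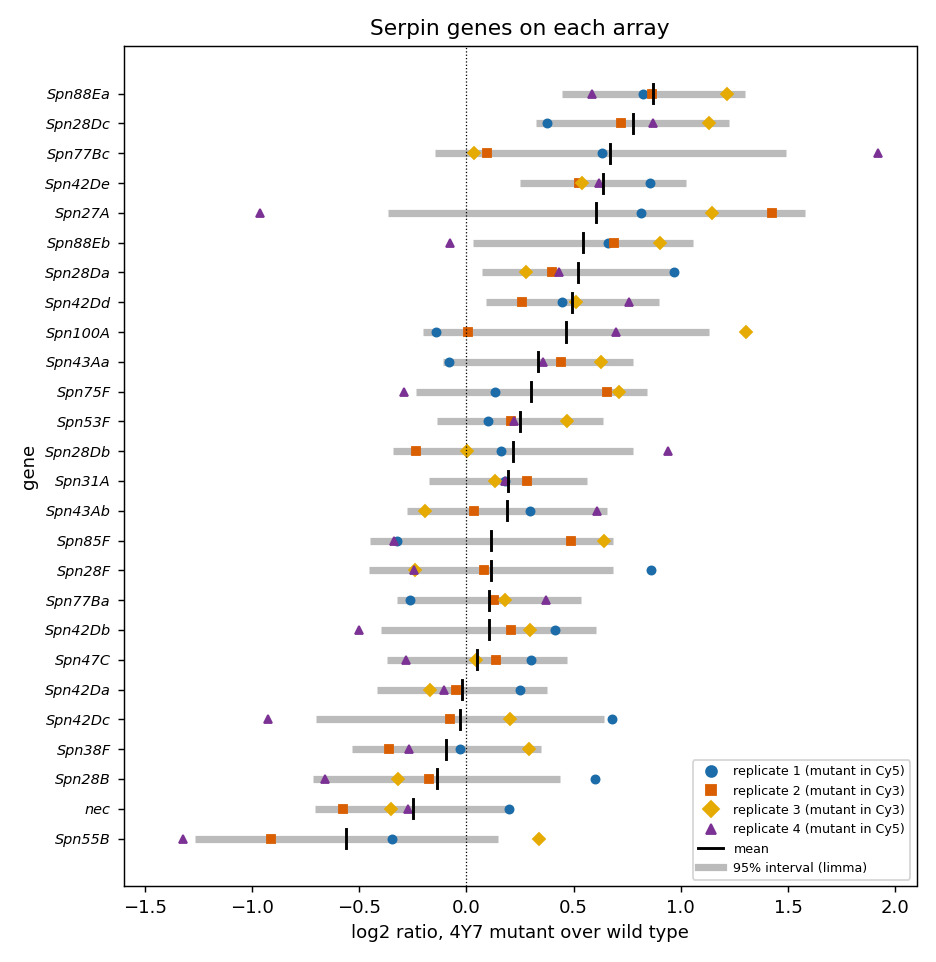
Log2 ratio of 4Y7 mutant over wild type (horizontal axis) of 26 serpin genes (rows, sorted by mean) on each of the 4 arrays (symbols), with the mean (black line) and limma's 95% interval (grey bar). Spn88Ea, Spn28Dc and Spn42De lie right of 0 on all arrays, while Spn27A and Spn77Bc are spread widely, with replicate 4 at -0.96 and 1.92.

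Many serpin genes lie side by side in the genome, and neighbours did not always go together. In a RefSeq gene table (assembly Release 6 plus ISO1 MT), used for names and gene order only, 8 serpins lie on arm 2L, 11 on 2R, 3 on 3L, 4 on 3R and 0 on the X chromosome, while the proteases are on 3L (2), 3R (5) and X (4). The 5 genes Spn42Da to Spn42De are consecutive, and their means were -0.02, 0.10, -0.03, 0.49 and 0.64 in that order. Spn42De lay above Spn42Da on every array, by 0.61, 0.58, 0.71 and 0.72. Spn88Ea and Spn88Eb, with 0 coding genes between them, were both high, with Spn88Ea above Spn88Eb by 0.16, 0.18, 0.31 and 0.66. Between Spn28Da and Spn28Db lie 0 coding genes, and between Spn28Db and Spn28Dc lie 6. In this group the outer genes had means of 0.52 and 0.78, and Spn28Db had 0.22. Spn43Aa and Spn43Ab, with 2 coding genes between them, had means of 0.33 and 0.19. The gene nec, beyond them with 1 coding gene between it and Spn43Ab, had -0.25. These groups were formed by gene order, and their differences are given as values with no test.

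**Figure D4:**
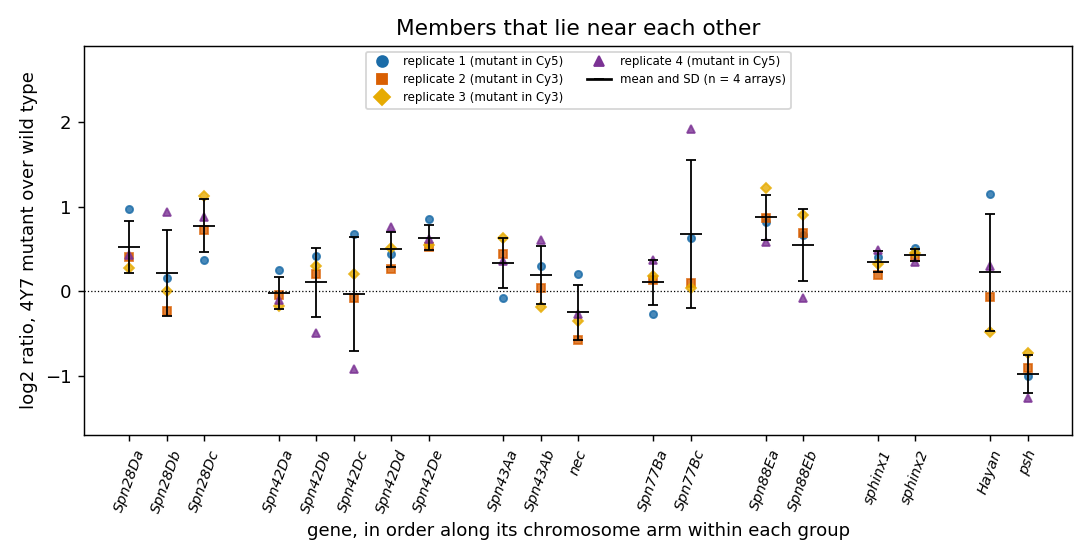
Log2 ratio of 4Y7 mutant over wild type (vertical axis) of members near each other on a chromosome arm, in gene order within each group, on each of the 4 arrays (symbols) with the mean and SD. In the Spn42D group the last 2 genes, at 0.49 and 0.64, stand above the first 3, and psh stands below Hayan on every array.

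Members differed in how far apart their means were in the 2 dye orientations, the only batch that the labels give. With 2 arrays in each orientation, an effect of dye and a difference between replicates cannot be told apart. Over the gene means, 10 of 37 members (9 serpins and Hayan) had opposite signs in the 2 orientations. The share of all features with opposite signs was not computed, so whether this count is high or low cannot be said. Between arrays of opposite orientation, r over all features ran from 0.04 to 0.40. Spn27A had -0.07 where the mutant carried Cy5 and 1.29 where it carried Cy3, and Spn85F had -0.33 and 0.56. The Cy5 mean of Spn27A joins 0.82 on replicate 1 and -0.96 on replicate 4, so only replicate 4 stood apart from the Cy3 arrays in sign. Spn77Bc had 1.28 where the mutant carried Cy5 and 0.07 where it carried Cy3. Of the genes with an unadjusted p under 0.05, psh had -1.14 and -0.82 in that order, Spn28Dc had 0.62 and 0.93, and sphinx2 had 0.43 and 0.43. A small p over these same 4 arrays favours genes of even sign, so this agreement is no separate support. The mean of the array medians was 0.18 and 0.23 for serpins and 0.30 and 0.26 for proteases, Cy5 first.

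**Figure D5:**
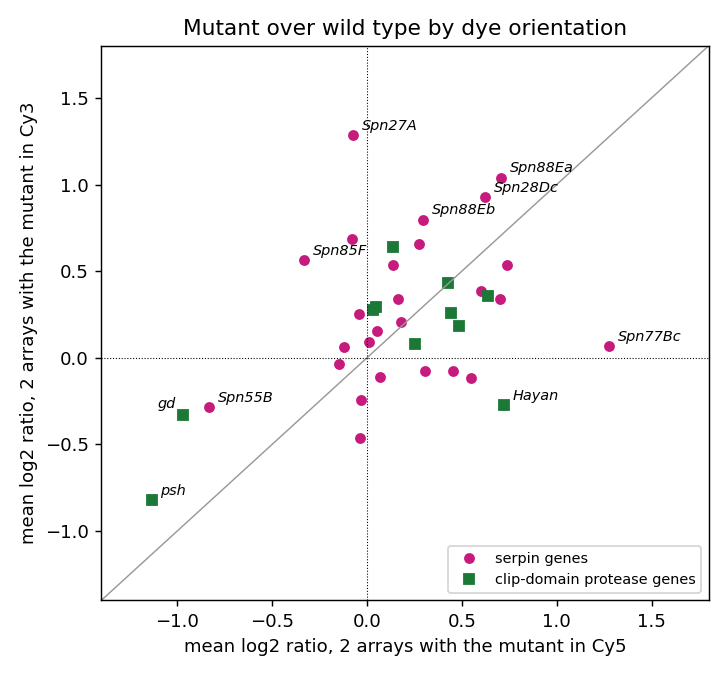
Mean log2 ratio of 4Y7 mutant over wild type where the mutant carried Cy5 (2 arrays, horizontal axis) and where it carried Cy3 (2 arrays, vertical axis), for 26 serpin genes (circles) and 11 protease genes (squares), with the line of equal values. The gene psh lies at the lower left and Spn88Ea at the upper right, each with 1 sign in both orientations, whereas Spn27A, Spn77Bc and Hayan lie far from the line.

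Other genes of these cascades were taken from lists of pathway members. Of 9 measured genes of Toll recognition and the core pathway, 0 were called (1 higher and 0 lower at an unadjusted p under 0.05, against 7.91% and 11.3% of all features), with a median log2 ratio of 0.05. Tl, the receptor gene, had values of 0.78, 0.79, 0.97 and 1.64 (mean 1.04 ± 0.41, limma adjusted p = 0.0769), all above 0, and was the highest of the list. The ligand gene spz was at -0.10 ± 0.39 and the fungal sensor gene GNBP3 at 0.45 ± 0.46. PGRP-SA was not analysed here. Downstream of the cascade, 5 of 9 measured Toll target peptide genes rose and 0 fell, against 0.396% and 0.425% of all features, with a list median of 2.19. They are Drs, BomS2, BomT3, BomBc3 and Bbd, with means from 2.04 to 3.48 and limma adjusted p from 0.014 to 0.0424. These calls were lost with a dye term and without replicate 1, where limma called 0 of all features (3537 and 2052 at an unadjusted p under 0.05). Means of the whole list ran from 0.20 to 3.48. The list leaves out 2 measured bomanin genes, BomS4 (mean 0.47, limma adjusted p = 0.349) and BomS6 (mean 1.74, limma adjusted p = 0.142), neither of them called.

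On the melanization side, 0 of 7 listed enzymes were called, with a median of 0.44. At an unadjusted p under 0.05, 3 were higher and 1 lower, against 7.91% and 11.3% of all features. The prophenoloxidase genes of blood cells were below 0 on average. PPO1 had values of 0.01, -0.85, -0.67 and -1.62 (mean -0.78 ± 0.67, limma adjusted p = 0.21), PPO2 had a mean of -0.70 ± 1.05, and PPO3 of -0.21 ± 0.63. The other enzymes, which serve cuticle and melanin chemistry, stood higher, with ple, the tyrosine hydroxylase gene, at 1.16 ± 0.37 (limma adjusted p = 0.0616) and yellow-f, a dopachrome conversion enzyme gene, at 1.20 ± 0.43 (limma adjusted p = 0.0657). Of 37 other clip-domain or related serine protease genes, 0 were called, with 4 higher and 0 lower at an unadjusted p under 0.05 (7.91% and 11.3% of all features). Their median was 0.18 and their range -0.70 to 1.02, close to the medians of the serpins and proteases above.

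Tissue markers were read from the same ratios. No gene of these marker lists was called: fat body (7 genes, median -0.21), blood cells (15, -0.21), salivary gland (7, 0.96), male reproductive tract (12, 0.23), midgut (9, -0.07) and trachea and cuticle (5, -0.11). At an unadjusted p under 0.05, 7 of these 55 list entries were higher and 8 lower, against 7.91% and 11.3% of all features. The lists differed in this. Higher and lower entries numbered 4 and 0 of 7 for salivary gland, 1 and 4 of 15 for blood cells, and 1 and 2 of 9 for midgut. They numbered 1 and 0 of 12 for the male tract, 0 and 2 of 5 for trachea and cuticle, and 0 and 0 of 7 for fat body. On replicates 1 to 4 the fat body medians were 0.29, 0.37, -0.98 and -0.48, the blood cell medians -0.04, -0.14, -0.21 and -0.07, the male tract medians 0.38, 0.23, -0.14 and 0.39, and the salivary gland medians 1.68, 2.22, 0.22 and 0.70. Those of the midgut were 0.83, -0.41, 0.70 and -1.50. The medians of trachea and cuticle were -0.48, -0.16, -0.33 and 0.05. The blood cell list holds the 3 prophenoloxidase genes. Ratios carry no level, so which markers were present could not be read, and the part of tissue makeup in the serpin and protease ratios was not tested.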

How the data were processed

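The deposited table holds 1 log ratio per probe and array, named here as log2. The authors' base, centring, within-array normalization and direction are not stated in the sources used here. Values reach -13.22, which speaks for base 2, and replicate medians are -0.0015, 0.0042, 0.0128 and -0.0005. Channel brightness was not used, so background and saturation were not examined. Precision is limited by the number of arrays.

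Of 14569 probes, 12658 carry 1 gene symbol in the platform annotation, 96 several and 1815 none. Probes of 1 gene were averaged per array, and all others entered singly. A two-sided test of the mean ratio against 0 was run on all 13891 features with lmFit and eBayes of limma 3.58.1 (R 4.3.3). Figures were made with Python 3.11.15 and matplotlib 3.10.9. SDs are over 4 arrays. The p-values set each mean against a spread between arrays that limma draws towards a value common to all features (prior degrees of freedom 3.275). They therefore do not follow from the printed SDs alone.

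Every member is named, with array values for the 10 serpins and 8 proteases of smallest p. Array values of nec, Spn27A, Hayan, Spn77Ba and snk, and the neighbour pairs, were added after the values were seen. Members, lists and tests were chosen with earlier results of these data known. Alternatives were a dye term, scale, quantile and median normalization, single probes, array weights, turned signs, extreme features left out and each replicate left out. The orientations alone were added after the data were seen.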

Additional observations from a re-analysis of the deposited data

How the results depend on the processing

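No serpin or protease was called in limma under a dye term, scale, quantile or median normalization, single probes, extreme features left out, or any replicate left out. With array weights, from 0.232 for replicate 4 to 5.47 for replicate 2, 6079 of all features were called, among them 11 serpins and 5 proteases. Over the 2 arrays with the mutant in Cy3 alone, 2573 features, 5 serpins and 1 protease were called, and over the 2 with it in Cy5, 4 features and 0 members. Over all features, the 114 calls (55 higher, 59 lower) became 0 with a dye term, 217 (85 higher, 132 lower) without features over 5 in size, 90 (55 higher, 35 lower) under quantile normalization, and 0 to 21 without single replicates, with 0 when replicate 1 was left out. With the signs of replicates 2 and 3 turned, as if the ratios were Cy5 over Cy3, 0 features were called (1053 at an unadjusted p under 0.05). In that setting 20 of 37 members changed sign, and the medians were -0.054 for serpins and -0.00092 for proteases. The share of all features that changed sign was not computed, neither here nor with replicates left out. Without single replicates, 1 to 4 members changed sign and the protease median ran from 0.199 to 0.301, the highest without replicate 1. The difference of serpin and protease medians, -0.02, was 0.06 without replicate 4 and 0.03 with array weights. The causes of these shifts were not tested. Each value is a ratio of 2 samples on 1 array, so the test against 0 is itself paired by array. No brightness was used here, so how far signal over background limits these ratios was not examined.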

Other observations

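Over the 11 protease genes, Pearson r between arrays was 0.63 to 0.70 for 5 of the 6 pairs and 0.21 for replicates 1 and 3, whereas over all features it ran from 0.04 to 0.65. Without psh and gd, chosen after their values were seen, r over the other 9 proteases ran from -0.67 to 0.30, with 3 of the 6 pairs below 0, so the likeness of the arrays rested on psh and gd. These are correlations across genes that share arrays, given as a description. Over the 26 serpins, r ran from -0.002 to 0.66, highest for replicates 2 and 3.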
